A study of Homo sapiens with 4 samples.

Results

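Histone deacetylases (HDACs) of classes I, IIb and IV were followed in the human T-cell leukemia line Jurkat after knockdown of the transcription factor LEF1. The members were all probe sets annotated to HDAC1, HDAC2, HDAC3 and HDAC8 (class I), HDAC6 and HDAC10 (class IIb) and HDAC11 (class IV). These are 7 of 19775 genes and 14 of 54613 probe sets, a probe set being a group of short probes that together give 1 signal, at times from several transcripts. The genes were chosen by symbol and by no threshold on their values, though earlier results of these data were known. Cells transfected with 100 nM of a pool of siRNAs against LEF1 (siLEF1) were set against cells given 100 nM of a pool of non-targeting siRNAs (siNT). RNA was taken after 24 h, and each group had 2 HG-U133 Plus 2.0 arrays, labelled as biological replicates. Both groups were transfected, all arrays came from 1 cell line, and cells without transfection were not analysed here. Values are log2 signals after RMA (robust multichip average), so a difference of 1 is a 2-fold change. Signals of different probe sets are not on a common scale, and differences were taken only between arrays.

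HDACs remove acetyl groups from lysines with the help of a zinc ion. The class I enzymes HDAC1 and HDAC2 work mainly in the nucleus, within the corepressor complexes NuRD, SIN3, CoREST and MiDAC, while HDAC3 works in a corepressor complex of its own. Without β-catenin, LEF1 binds TLE corepressors, through which deacetylases reach Wnt target genes, and the enzymes are therefore partners of the repressive side of LEF1. The class IIb enzymes lie largely in the cytoplasm, and HDAC11 is the only class IV enzyme.

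LEF1 itself was read by 3 probe sets. The brightest, 221558_s_at, gave log2 signals of 11.24 and 11.56 with siLEF1, against 12.30 and 11.92 with siNT. Its log2 difference was -0.71 (95% interval -1.20 to -0.22, adjusted p = 0.191 from limma), so that the groups did not overlap but the probe set was not called. The probe sets differed in size, since 210948_s_at, with 6.88 and 7.24 with siLEF1, against 8.20 and 7.78 with siNT, had a log2 difference of -0.93 (adjusted p = 0.141 from limma), and the dimmest, 221557_s_at, one of -0.19 with overlapping groups (adjusted p = 0.673 from limma). Throughout, called means an adjusted p under 0.05 over the whole array together with a fold change over 2. Of all probe sets 113 were called, 0.207%. The siNT arrays differed more from each other than the siLEF1 arrays (median absolute log2 difference 0.147 for the siLEF1 pair and 0.206 for the siNT pair), and siNT replicate 2 stood farthest from the siLEF1 arrays (Pearson's r across probe sets 0.979 and 0.980). The 5' minus 3' log2 signal of ACTB, a measure of RNA integrity, was -1.08 and -1.55 with siLEF1, against -1.80 and -1.95 with siNT. That of GAPDH was -0.34 and -0.32 with siLEF1, against -0.39 and -0.65 with siNT. In both genes the siLEF1 arrays had the less negative values, and the part of this in the results below was not tested. As a coarse check of the label, 0 of 10 T-cell marker genes lay under the median of their array in all 4 arrays, as did 2 of 4 B-cell, 2 of 5 myeloid and 2 of 5 epithelial and stromal markers. Since probe sets have no common scale, this places signals against the array median only, and several markers of other lineages were not under it. Of the 10 T-cell markers 0 were called and 9 were above 0 in log2 difference, as were 10581 of all 19775 genes. At an unadjusted p under 0.05, 5 of the 10 were higher, where 7% of all genes were. Their median log2 signals overlapped between the groups (9.52 and 9.65 with siLEF1, against 9.63 and 9.13 with siNT). The median of their log2 differences was 0.41. It was 0.18 against siNT replicate 1 alone and 0.63 against siNT replicate 2 alone. Its part in the results below was not tested.

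Of the 14 HDAC probe sets, 0 were called in either direction. At an unadjusted p under 0.05 there was 1, the dimmer HDAC2 probe set 242141_at, where 15.6% of all probe sets were under that threshold and 6.85% were so and higher. In value, 13 of the 14 log2 differences were above 0 and 1 was below, against 56.7% of all probe sets above 0. Their median was 0.16, and that of all probe sets was 0.041. With each gene read by its brightest probe set only, the HDAC median was 0.072 over 7 genes, and that of all genes was 0.023. Of the 7 genes, 6 were above 0, as were 10581 of all 19775 genes. Without overlap 3 were higher and 0 lower, against 28.1% and 26.4% of all genes. The siLEF1 arrays lay above the siNT arrays without overlap in 5 HDAC probe sets and below them in 0, while over the whole array 27.4% lay above and 21.2% below. The 95% interval lay entirely within a 2-fold change in 13 HDAC probe sets, as it did in 86.1% of all probe sets. Thus for each HDAC gene the brightest probe set left room for a rise of at most 0.78 and a fall of at most 0.38 on the log2 scale, by these unadjusted intervals. They hold for this normalization only, since centring on housekeeping genes, described below, moved HDAC3 from -0.029 to -0.26. Intervals of dimmer probe sets ran as far as 1.05 (HDAC2 242141_at) and -0.52 (HDAC8 223908_at). These bounds describe RNA levels and say nothing of enzyme activity.

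**Figure D1:**
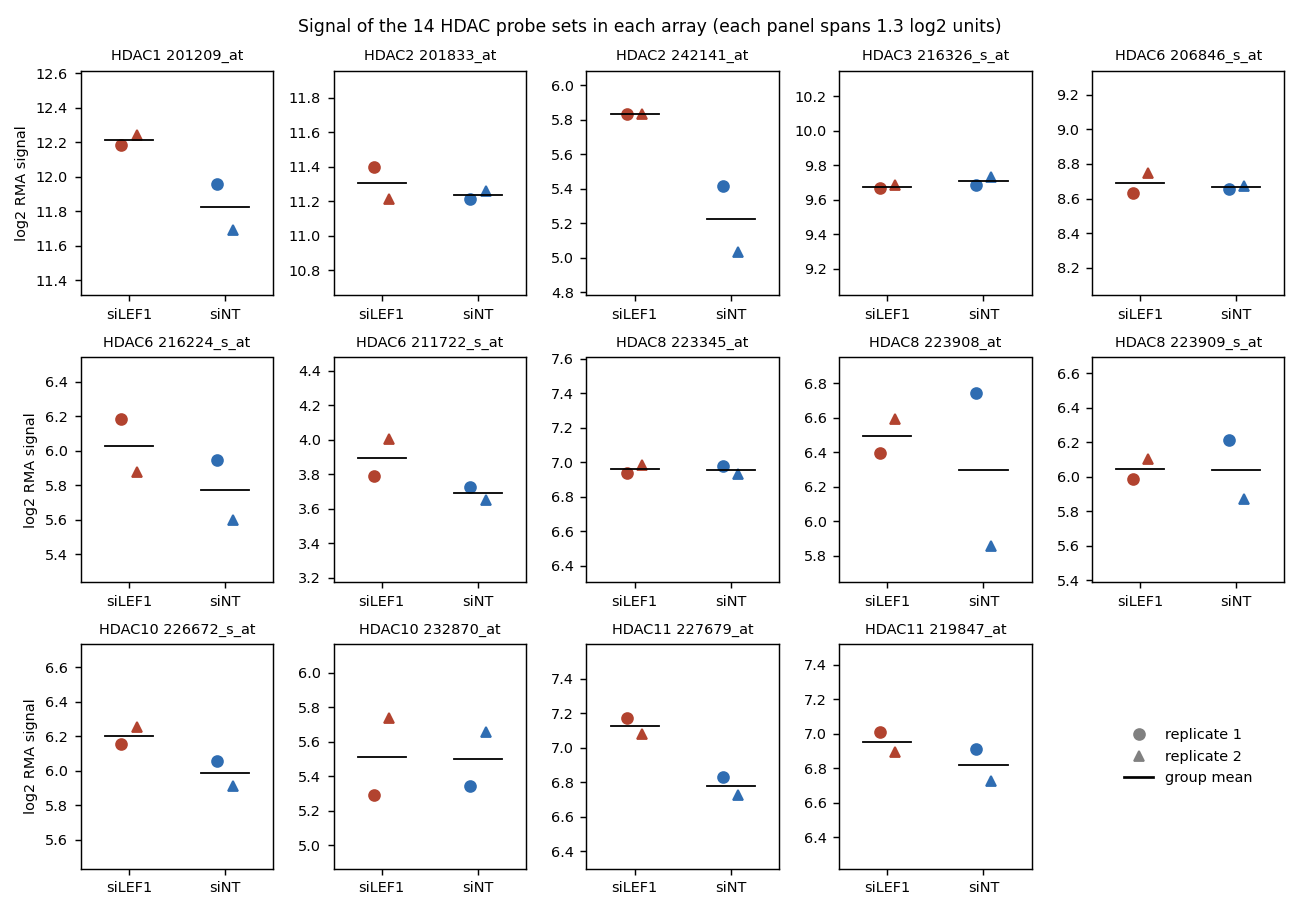
RMA signal on the log2 scale (vertical axis) of the 14 HDAC probe sets in siLEF1 and siNT arrays, with circles for replicate 1, triangles for replicate 2 and a bar for the mean of each group. Every panel spans the same range, and the groups are apart in 5 of the 14 panels, in HDAC1 and in 1 probe set each of HDAC2, HDAC6, HDAC10 and HDAC11. In these 5 siLEF1 is higher, as it is without overlap in 27.4% of all probe sets.

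**Figure D2:**
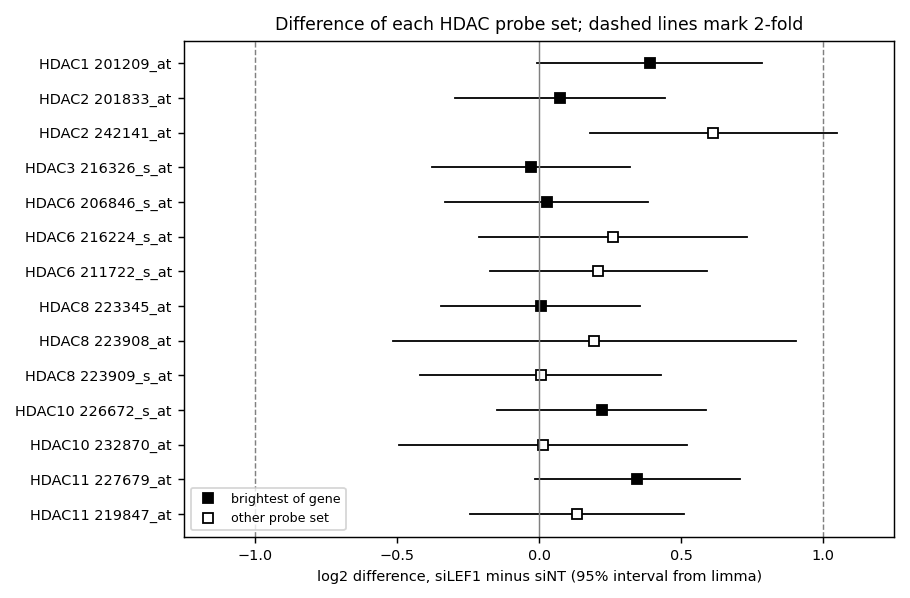
Log2 difference siLEF1 minus siNT (horizontal axis) of each HDAC probe set with its 95% interval from limma, where filled squares are the brightest probe set of a gene and dashed lines mark a 2-fold change. Intervals include 0 in 13 of 14 probe sets, and 1, of the dimmer HDAC2 probe set, reaches past 2-fold.

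The start sites are shown for HDAC1 and HDAC11, whose brightest probe sets had the highest log2 differences, for HDAC3 and HDAC8, whose had the lowest, and for HDAC2, whose probe sets gave differences of unlike size. Each sequence is a RefSeq window of 250 bases before and 50 bases from the start site (build GRCh38.p14), 5′ to 3′ on the strand of the gene, and capitals mark GC boxes (GGGCGG on either strand), to which SP1-type factors bind. HDAC1 is at chr1:32291833-32292132 on the plus strand, HDAC11 at chr3:13480056-13480355 on the plus strand, HDAC3 at chr5:141636800-141637099 on the minus strand, HDAC8 at chrX:72572794-72573093 on the minus strand and HDAC2 at chr6:113971099-113971398 on the minus strand.
HDAC1: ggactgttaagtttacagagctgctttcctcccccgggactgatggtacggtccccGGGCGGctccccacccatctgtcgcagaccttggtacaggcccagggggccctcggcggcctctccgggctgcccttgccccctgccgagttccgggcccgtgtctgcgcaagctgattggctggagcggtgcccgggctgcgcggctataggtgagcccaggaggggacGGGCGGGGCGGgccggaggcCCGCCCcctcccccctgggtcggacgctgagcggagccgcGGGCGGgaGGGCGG
HDAC11: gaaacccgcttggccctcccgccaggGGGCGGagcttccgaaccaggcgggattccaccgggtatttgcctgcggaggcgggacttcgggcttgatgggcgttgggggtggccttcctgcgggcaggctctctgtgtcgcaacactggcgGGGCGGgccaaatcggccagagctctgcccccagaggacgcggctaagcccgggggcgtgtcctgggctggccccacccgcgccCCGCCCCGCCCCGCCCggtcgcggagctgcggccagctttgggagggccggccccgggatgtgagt
HDAC3: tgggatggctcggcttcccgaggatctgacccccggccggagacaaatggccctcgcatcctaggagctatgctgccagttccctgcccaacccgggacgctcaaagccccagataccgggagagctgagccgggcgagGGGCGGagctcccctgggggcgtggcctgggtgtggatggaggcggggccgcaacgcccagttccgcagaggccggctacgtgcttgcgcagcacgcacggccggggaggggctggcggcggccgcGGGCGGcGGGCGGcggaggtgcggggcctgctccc
HDAC8: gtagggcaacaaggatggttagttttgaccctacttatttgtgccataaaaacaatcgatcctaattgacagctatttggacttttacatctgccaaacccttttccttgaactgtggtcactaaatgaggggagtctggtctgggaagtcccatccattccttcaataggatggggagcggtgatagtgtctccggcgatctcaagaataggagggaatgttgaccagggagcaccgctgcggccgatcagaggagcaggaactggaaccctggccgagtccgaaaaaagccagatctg
HDAC2: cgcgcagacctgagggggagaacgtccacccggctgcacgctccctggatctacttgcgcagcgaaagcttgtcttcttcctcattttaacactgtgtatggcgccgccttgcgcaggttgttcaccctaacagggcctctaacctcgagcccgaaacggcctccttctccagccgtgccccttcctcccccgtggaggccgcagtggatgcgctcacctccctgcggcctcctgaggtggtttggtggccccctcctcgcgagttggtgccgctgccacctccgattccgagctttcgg

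All 7 genes had such a window, and HDAC6 had 3, which gives 9 windows. The LEF1/TCF core, searched on both strands as CTTTGAA or CTTTGAT and, with T in the sixth place, as CTTTGTA or CTTTGTT, was found in the windows of 0 of the 7 genes, and in 13.8% of 35116 windows of all genes. This says only that these letters are not in the windows searched. GC boxes were found in 5 of the 7 genes, and in 45% of all windows, with overlapping matches counted separately. The 13.8% and 45% are shares of windows, and a gene with several windows has more chances of a match. Counted by gene, in the window with most, 5443 genes on the array had 0 GC boxes, 7494 had 1 to 3 and 2447 had 4 or more. HDAC1 had 6, HDAC11 had 5, HDAC10 had 4 and HDAC3 had 3, while the windows of HDAC6 had 1, 2 and 4 and those of HDAC2 and HDAC8 had 0. In GC content the windows ran from 49.3% in HDAC8 to 77% in HDAC10, and the median of all windows was 58.7%. The 3 genes whose brightest probe set was higher without overlap had 4 to 6 GC boxes, and those that overlapped had 0 (HDAC2, HDAC8), 3 (HDAC3) and up to 4 (HDAC6), a count compared only after the values were seen. Among all genes, the brightest probe set was higher without overlap in 36.4% of 2447 genes with 4 or more GC boxes, in 28.4% of 7494 with 1 to 3 and in 24.8% of 5443 with 0. The median log2 differences of these genes were 0.078, -0.0017 and 0.024. Against siNT replicate 1 alone they were 0.035, -0.010 and 0.038, so that the genes with 4 or more boxes were no longer above those with 0. Among genes with a mean log2 signal of at least 6, the shares were 41.8%, 31.4% and 26% and the medians 0.10, -0.021 and -0.069. Against siNT replicate 1 alone the medians of these brighter genes were 0.0375, -0.042 and -0.090, in the same order. No test was made of these differences.

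HDAC1 and HDAC2 are close paralogs that pair with each other in most of their complexes. HDAC1 (201209_at) gave log2 signals of 12.18 and 12.24 with siLEF1, against 11.96 and 11.69 with siNT. Both siLEF1 arrays were above both siNT arrays, and the siNT arrays lay 0.27 apart. The log2 difference was 0.39 (95% interval -0.0070 to 0.78, n = 2 arrays per group, adjusted p = 0.328 from limma), a 1.31-fold higher mean. HDAC2 in its brighter probe set (201833_at) had 11.40 and 11.21 with siLEF1, against 11.21 and 11.26 with siNT, so that the groups overlapped. Its log2 difference was 0.072 (95% interval -0.30 to 0.44, adjusted p = 0.869 from limma). The dimmer HDAC2 probe set (242141_at) read otherwise, with 5.84 and 5.84 with siLEF1, against 5.42 and 5.03 with siNT. This was the largest log2 difference of the HDACs, 0.61 (95% interval 0.18 to 1.05, unadjusted p = 0.0134, adjusted p = 0.202 from limma), and it was not called. The HDAC2 probe sets therefore gave differences of unlike size, both above 0 and with overlapping intervals, and they were not compared by a test. What distinguishes the transcripts they read is not given in the sources used here. HDAC2-AS2, annotated separately as an antisense RNA of HDAC2, had a log2 difference of 0.14 (adjusted p = 0.799 from limma), which was -0.10 against siNT replicate 1 alone.

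HDAC3 is the catalytic subunit of a nuclear corepressor complex, and HDAC8 acts without a large complex and deacetylates the cohesin subunit SMC3. HDAC3 (216326_s_at) gave log2 signals of 9.67 and 9.69 with siLEF1, against 9.68 and 9.73 with siNT. The 4 arrays nearly coincide, and its log2 difference was -0.029 (95% interval -0.38 to 0.32, adjusted p = 0.95 from limma). The brightest HDAC8 probe set (223345_at) had 6.94 and 6.98 with siLEF1, against 6.98 and 6.93 with siNT, with a log2 difference of 0.0042 (95% interval -0.35 to 0.35, adjusted p = 0.994 from limma). Another HDAC8 probe set (223908_at) had 6.40 and 6.59 with siLEF1, against 6.74 and 5.86 with siNT. Here the siNT replicates were 0.89 apart, with both siLEF1 arrays between them, the widest gap between replicates among the HDACs. The remaining one (223909_s_at) had 5.99 and 6.10 with siLEF1, against 6.21 and 5.87 with siNT and likewise overlapped. The log2 differences of these were 0.19 (95% interval -0.52 to 0.90) and 0.0046 (95% interval -0.42 to 0.43), with adjusted p = 0.807 and 0.994 from limma.

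HDAC6 has a pair of catalytic domains and deacetylates α-tubulin, and HDAC10 deacetylates the polyamine acetylspermidine. The brightest HDAC6 probe set (206846_s_at) gave log2 signals of 8.63 and 8.75 with siLEF1, against 8.66 and 8.67 with siNT. The siNT values lie between those of siLEF1 cells, and the log2 difference was 0.026 (95% interval -0.33 to 0.38, adjusted p = 0.957 from limma). The HDAC6 probe set of middle brightness (216224_s_at) had 6.18 and 5.88 with siLEF1, against 5.94 and 5.60 with siNT, which overlapped. The dimmest (211722_s_at) had 3.79 and 4.003 with siLEF1, against 3.73 and 3.65 with siNT, apart without overlap and under the median of every array. Their log2 differences were 0.26 (95% interval -0.21 to 0.73) and 0.21 (95% interval -0.17 to 0.59). HDAC10 in its brighter probe set (226672_s_at) had 6.15 and 6.25 with siLEF1, against 6.06 and 5.91 with siNT. The groups were apart by less than the siNT replicates were from each other, and the log2 difference was 0.22 (95% interval -0.15 to 0.59, adjusted p = 0.55 from limma). The dimmer HDAC10 probe set (232870_at) had 5.29 and 5.74 with siLEF1, against 5.35 and 5.66 with siNT, with a log2 difference of 0.012 (95% interval -0.50 to 0.52).

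HDAC11, the smallest of these enzymes, removes long fatty acyl groups from lysine more readily than acetyl groups. Its brighter probe set (227679_at) gave log2 signals of 7.17 and 7.08 with siLEF1, against 6.83 and 6.73 with siNT. The groups were apart, and by more than the replicates of either group, which differed by 0.093 and 0.0998. The log2 difference was 0.35 (95% interval -0.014 to 0.71, adjusted p = 0.338 from limma), a 1.27-fold higher mean that was not called. The other HDAC11 probe set (219847_at), of similar brightness, had 7.01 and 6.89 with siLEF1, against 6.91 and 6.73 with siNT. These overlapped, and the log2 difference was 0.13 (95% interval -0.25 to 0.51, adjusted p = 0.743 from limma).

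The values depended on the control array, since siNT replicate 2 was under siNT replicate 1 in 10 of the 14 probe sets. With 1 probe set per gene this lean was small, as siNT replicate 2 was the higher one in 3 of the 7 HDAC genes and in 9646 of all 19775 genes. Set against siNT replicate 1 alone, 10 of 14 log2 differences were above 0, against 58.3% of all probe sets, and their median was 0.091. HDAC1 then had a log2 difference of 0.25, HDAC11 (227679_at) one of 0.30 and the dimmer HDAC2 probe set one of 0.42, all still above 0 and not called. The HDAC8 probe set 223908_at was -0.25 against siNT replicate 1 and 0.64 against siNT replicate 2, so that its direction depended on the control array. HDAC3 stayed between -0.053 and -0.0062, and HDAC6 (206846_s_at) between 0.017 and 0.035. When the arrays were centred on 15 housekeeping genes, each difference was shifted by -0.23, and over all probe sets the median became -0.19. Only 4 of the 14 were then above 0, those of HDAC1, the dimmer HDAC2 probe set, HDAC6 (216224_s_at) and HDAC11 (227679_at). Since this centring shifts all probe sets alike, the 9 that were above the median of all probe sets stay so by construction.

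**Figure D3:**
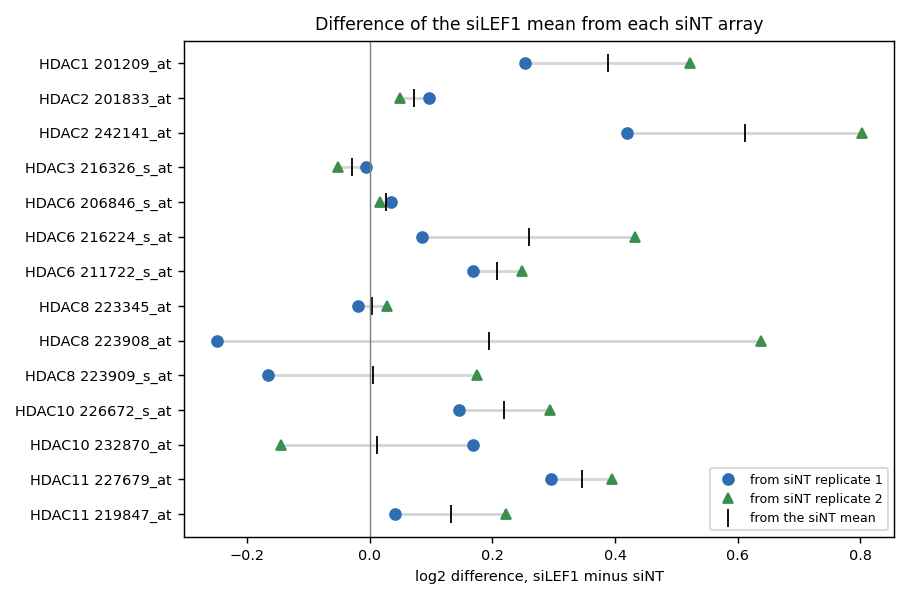
Log2 difference (horizontal axis) of the siLEF1 mean from siNT replicate 1 (circles), from siNT replicate 2 (triangles) and from the siNT mean (ticks), for each HDAC probe set. The widest pair is that of HDAC8 223908_at, at -0.25 and 0.64, and the narrowest is that of HDAC6 206846_s_at.

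The subunits that carry HDAC1 and HDAC2 were counted next, each gene by its brightest probe set. By this count 0.329% of all genes were called, 0.263% as lower. At an unadjusted p under 0.05, 7% of all genes were higher and 11.5% lower, and the groups did not overlap in 28.1% (higher) and 26.4% (lower). Of 13 NuRD genes 0 were called, 5 were higher at an unadjusted p under 0.05 and 0 were lower. Without overlap 10 were higher and 1 lower, and the median log2 difference was 0.35. It was 0.18 against siNT replicate 1 alone and 0.32 against siNT replicate 2 alone. GATAD2B, a scaffold subunit, gave log2 signals of 6.44 and 6.49 with siLEF1, against 5.94 and 5.69 with siNT, a difference of 0.65 (adjusted p = 0.155 from limma). RBBP7, a histone-binding subunit shared with SIN3, had a log2 difference of 0.61, MBD3 one of 0.45 and CDK2AP1 one of 0.44 (adjusted p = 0.221, 0.249 and 0.254 from limma). In value, 10 of the 13 were above 0 and 3 below, and the median of all genes was 0.023.

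Of 15 SIN3 genes measured, 0 were called and the median log2 difference was -0.12. It was -0.053 against siNT replicate 1 alone and -0.12 against siNT replicate 2 alone. Without overlap 4 genes were higher and 6 lower, against 28.1% and 26.4% of all genes. ARID4B had one of -0.61, SAP30 one of -0.34 and SUDS3 one of 0.51, so that subunits of 1 complex leaned in both directions. Among 9 CoREST genes 0 were called, with a median of 0.15. It was 0.094 against siNT replicate 1 alone and 0.21 against siNT replicate 2 alone. GSE1 had a log2 difference of 0.64 and KDM1A, the lysine demethylase of the complex, one of 0.44 (adjusted p = 0.202 and 0.262 from limma). HMG20B had one of 0.38 and RCOR2 one of -0.23. Of the 3 MiDAC genes, DNTTIP1 had a log2 difference of -0.51, TRERF1 one of 0.56 and MIDEAS one of 0.022, and 0 were called. The TLE family, which holds corepressors that bind LEF1, had a median of 0.31 over 5 genes with 0 calls. This median was 0.18 against siNT replicate 1 alone and 0.48 against siNT replicate 2 alone. TLE1 had the smallest p, at 9.17 and 9.17 with siLEF1, against 8.77 and 8.51 with siNT. Its log2 difference was 0.53 (adjusted p = 0.211 from limma).

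Genes of the substrates of HDAC6, HDAC8 and HDAC10 were also counted. Of 11 genes of HDAC6 substrates and tubulin acetylation 0 were called, and their median log2 difference was 0.10. HSP90AB1, a chaperone, had one of 0.39, the tubulin acetyltransferase gene ATAT1 one of -0.35, and the tubulin genes TUBA1C and TUBA1B, whose probe sets may read other tubulins too, 0.33 and 0.29. In the cohesin cycle, which HDAC8 completes by deacetylating SMC3, 0 of 13 genes were called and the median was 0.041. It was -0.053 against siNT replicate 1 alone and 0.16 against siNT replicate 2 alone. The cohesin acetyltransferase gene ESCO1 had a log2 difference of -0.46 and the release factor gene WAPL one of -0.64 (adjusted p = 0.251 and 0.259 from limma), and in both genes the siLEF1 arrays were the lower ones. CDCA5, which protects cohesin, had one of 0.41 and the loader gene NIPBL one of -0.44. Against siNT replicate 1 alone, WAPL had -0.34, NIPBL -0.19 and CDCA5 0.22.

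In polyamine metabolism, the pathway of HDAC10, 0 of 14 genes were called, but individual values were wide apart. Without overlap 6 genes were higher and 6 lower, against 28.1% and 26.4% of all genes, and the median was 0.060. SAT1, the main acetyltransferase of spermidine and spermine, gave log2 signals of 9.02 and 9.06 with siLEF1, against 9.82 and 10.87 with siNT. Its log2 difference was -1.31 (95% interval -2.10 to -0.51, adjusted p = 0.161 from limma), and against siNT replicate 1 alone it was -0.78. SAT2 had a log2 difference of -1.27 (adjusted p = 0.148 from limma), and ARG2, an arginase that makes the precursor ornithine, one of -1.27 (adjusted p = 0.0829 from limma). Against siNT replicate 1 alone these were -0.80 and -1.02. Spermine synthase, SMS, had 11.22 and 11.15 with siLEF1, against 10.67 and 10.28 with siNT, a log2 difference of 0.71 (adjusted p = 0.166 from limma).

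Other deacetylases were read in the same way. In class IIa, HDAC5 gave log2 signals of 8.21 and 8.30 with siLEF1, against 8.78 and 9.03 with siNT, a difference of -0.65 (95% interval -1.04 to -0.26, adjusted p = 0.158 from limma). Its other probe set, 229408_at, went the other way, with 6.72 and 6.40 with siLEF1, against 6.33 and 6.37 with siNT, a log2 difference of 0.21 (adjusted p = 0.611 from limma). HDAC4 had a log2 difference of 0.56, HDAC9 one of 0.34 and HDAC7 one of 0.13, and 0 of the 4 genes were called. Of 7 sirtuins, which use NAD in place of zinc, 0 were called. Without overlap 4 were lower and 1 higher, against 26.4% and 28.1% of all genes. SIRT1 had 9.25 and 8.91 with siLEF1, against 9.61 and 10.25 with siNT, a log2 difference of -0.85 (adjusted p = 0.201 from limma). SIRT4 had one of -1.11, SIRT7 one of -0.53 and SIRT5 one of -0.23. The brightest probe sets of class I, IIb and IV HDACs ran from -0.029 to 0.39 and those of class IIa and the sirtuins from -1.11 to 0.56. The ends of the second range rest on siNT replicate 2, since against siNT replicate 1 alone SIRT4 had -0.45, SIRT1 -0.53, SIRT7 -0.24, HDAC4 0.25 and HDAC9 0.052. Whether the families differ was not tested.

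Acetyltransferases, which add what HDACs remove, had a median log2 difference of -0.089 over 11 genes with 0 calls. It was -0.025 against siNT replicate 1 alone and -0.13 against siNT replicate 2 alone. KAT2A had 8.61 and 8.80 with siLEF1, against 8.15 and 8.02 with siNT, a log2 difference of 0.62 (adjusted p = 0.162 from limma). KAT8 had one of 0.39, CREBBP one of -0.56 and KAT2B one of -0.35. Bromodomain genes, whose proteins read acetylated lysines, had a median of -0.28 over 8 genes with 0 calls. It was -0.054 against siNT replicate 1 alone and -0.49 against siNT replicate 2 alone. BRPF3 had a log2 difference of -0.57, BRD8 one of -0.63 and BRD3 one of 0.35. BRD2 had one of -0.66, at 10.13 and 10.26 with siLEF1, against 10.27 and 11.44 with siNT. Here siNT replicate 1 lay just above the siLEF1 arrays, and against it alone the difference was -0.075.

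Genes that HDAC inhibitors are known to induce had the lowest median log2 difference of the lists described, -1.31 over 14 genes. Of these, 2 were called lower and 0 higher, where 0.263% of all genes were called lower. Without overlap 11 were lower and 0 higher, against 26.4% and 28.1% of all genes. Values of several members were known from these arrays when the list was written, so its direction is not independent evidence. DHRS2, a dehydrogenase gene first found as induced by butyrate, gave log2 signals of 5.74 and 5.47 with siLEF1, against 9.16 and 8.85 with siNT (206463_s_at, log2 difference -3.40, adjusted p = 0.0137 from limma). The histone gene H2AC6 had 6.57 and 6.50 with siLEF1, against 9.98 and 11.47 with siNT (adjusted p = 0.0454 from limma). H2BC12 and TXNIP, the gene of a thioredoxin inhibitor, had log2 differences of -4.08 and -1.32 and were not called (adjusted p = 0.0604 and 0.0753 from limma). The median of the list was -0.56 against siNT replicate 1 alone and -1.79 against siNT replicate 2 alone. Of the 14 genes, 11 were brighter in siNT replicate 2 than in siNT replicate 1, by a median of 0.99 over the list. In the same arrays the brightest probe sets of the 7 HDAC genes had a median siNT replicate difference of -0.048.

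**Figure D4:**
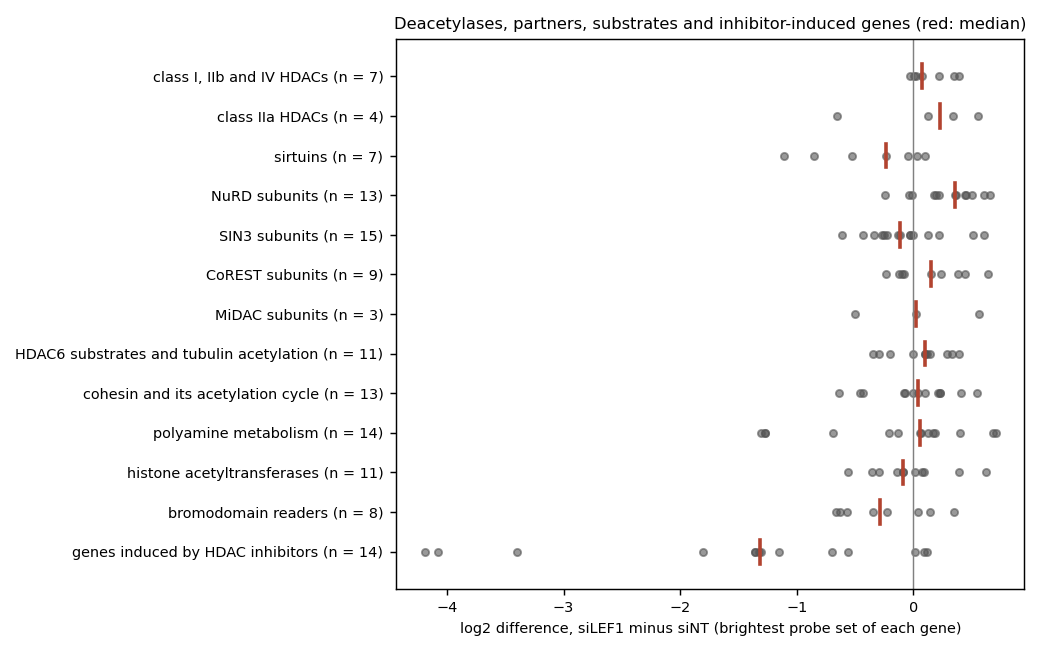
Log2 difference siLEF1 minus siNT (horizontal axis) of the brightest probe set of each gene (grey points) in the deacetylases and in lists of partners, substrates, opposing enzymes, readers and genes that HDAC inhibitors induce, with medians in red. The class I, IIb and IV HDACs lie between -0.029 and 0.39, and the inhibitor-induced genes have a median of -1.31. That median is -0.56 against siNT replicate 1 alone and -1.79 against siNT replicate 2 alone. Values of several of its genes were known when the list was written, so its direction is not independent evidence.

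The pattern of the dimmer HDAC2 probe set, the one with the smallest p, was compared with 17168 other probe sets of 1 gene with a mean signal of at least 6, after each was centred on its own mean. The most alike over the 4 arrays were SLC12A2, TTL and GNB5, with root mean square differences of 0.0066, 0.0081 and 0.011 on the log2 scale. Of these, SLC12A2, which encodes a sodium, potassium and chloride cotransporter, had 9.40 and 9.41 with siLEF1, against 8.98 and 8.59 with siNT. With 4 arrays and 17168 probe sets searched, close matches can be found for many patterns, and shared regulation was not tested. The HDAC2 probe set itself had a mean signal under 6.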

How the data were processed

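RNA of Jurkat cells was measured on 4 HG-U133 Plus 2.0 arrays, 2 of siLEF1 and 2 of siNT cells. RMA was run by the authors in Expression Console, version 1.1 by the submitters' processing notes, and the deposited values are log2 signals per probe set and array. RMA makes the distributions of the arrays equal, so a shift of all genes would not be seen. Whether other arrays shared the RMA run is not given in the sources used here.

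Differences siLEF1 minus siNT of each probe set were tested by a 2-sided moderated linear model (limma 3.58.1, R 4.3.3, 2 residual and 4.30 prior degrees of freedom). After 62 control probe sets were removed, 54613 were tested, with adjustment over all of them by the Benjamini-Hochberg method. Thresholds were those of the study's methods. The number of arrays limits the precision, and p-values measure only the spread between these cultures.

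Symbols came from the platform annotation, updated by Entrez number. 41091 probe sets had 1 symbol, 1801 several and 11721 none. Listed genes with no probe set of their own were not analysed here. The members and the gene lists were chosen with earlier results of these data known. Named genes are the members, LEF1, up to 4 genes of lowest p per list, and the 3 most like 242141_at. HDAC2-AS2 and the remaining class IIa values were named outside this rule. Alternatives left out 1 array at a time, or changed the filter, the centring, the probe sets, the block, the fold or the test. The model was tested on simulated data.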

Additional observations from a re-analysis of the deposited data

How the results depend on the processing

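In all alternatives to the fit, 0 HDAC probe sets were called. The number called over the whole array, 113, was 5 with probe sets of a mean log2 signal of at least 6 only, 0 by an F test without moderation (4393 at an unadjusted p under 0.05), 1290 with arrays centred on housekeeping genes, 200 with 1 probe set per gene and 0 to 1882 when 1 array was left out (1882 without siNT replicate 1 and 0 without any other array, where 3688 to 6232 had an unadjusted p under 0.05). Centring on the median signal of housekeeping genes moved all differences by -0.23, where the median log2 difference of those genes was 0.090. It changed the median of the HDAC probe sets to -0.065. It also gave values below 0 for HDAC2 201833_at (-0.16), HDAC6 206846_s_at (-0.20) and 211722_s_at (-0.020), HDAC8 223345_at (-0.22), 223908_at (-0.034) and 223909_s_at (-0.22), HDAC10 226672_s_at (-0.0079) and 232870_at (-0.22) and HDAC11 219847_at (-0.096). When 1 array was left out, the sign also turned in HDAC2 201833_at (-0.020 to 0.17), HDAC6 206846_s_at (-0.032 to 0.084), HDAC8 223345_at (-0.020 to 0.028), 223908_at (-0.25 to 0.64) and 223909_s_at (-0.17 to 0.18) and HDAC10 232870_at (-0.21 to 0.23). In HDAC1 the value stayed between 0.25 and 0.52, in HDAC11 227679_at between 0.30 and 0.40 and in HDAC2 242141_at between 0.42 and 0.80. The cause of these shifts was not tested beyond the construction of each alternative. These fits with 1 array in a group assume that it varies like the other group.

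The replicate block, a pairing by replicate number that the labels do not explain, gave 1097 calls over the array and 0 among the HDACs. Deviations of same-numbered arrays from their group means had only a weak, negative correlation across probe sets (Pearson's r = -0.15). With crossed numbers, an alternative added after the data were seen, 922 were called and 0 among the HDACs. The HDAC median, 0.16, was 0.10 with probe sets of a mean log2 signal of at least 6, 0.072 with 1 probe set per gene, and 0.091 without siNT replicate 2 to 0.24 without siNT replicate 1.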
